A study of Mus musculus with 6 samples.

Results

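CD8 T cells from mouse tumours were divided by the size of their clonotype, the set of cells that carry the same rearranged T cell receptor (TCR). Of 41679 cell barcodes in 6 samples, 9664 passed as CD8 T cells: at least 300 genes, 500 unique molecular identifiers (UMIs, one per captured RNA molecule), at most 10% mitochondrial UMIs, at least 1 TCR beta chain (TRB), at least 2 UMIs of Cd8a and Cd8b1 together and none of Cd4. Cells were then counted per clonotype within a sample, with clonotypes as the authors' V(D)J calls give them. Clonotypes of at least 5 cells were called expanded (7967 cells in 233 clonotypes) and clonotypes of 1 cell single (1055 cells), so that 9022 of the 9664 cells were members of 1 class or the other. The remaining 642 cells belonged to clonotypes of 2 to 4 cells. The members were thus chosen by their measured clone size, and clone sizes are given as a description. Gene expression was not used, except for Cd8a, Cd8b1 and Cd4, which were left out of every test together with the TCR segment genes.

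The tumours were MC38, a mouse colon carcinoma line, injected under the skin, and live CD45+ cells were sorted from them at day 25. The 3 controls (ctr) are labelled as Ctcf wild type in regulatory T cells (Tregs), and the 3 knockouts (cko) as lacking Ctcf in Tregs after tamoxifen induction. Ctcf encodes a DNA-binding protein that shapes chromatin loops. The Cre driver and the timing of tamoxifen are not given in the sources used here. In each sample RNA and TCR chains were read from the same droplets. Per library, UMI totals were 45322797 to 55515267 and 41 to 81 barcodes recurred between any pair of libraries. The summed counts compared below held 7444759 to 17593190 UMIs per sample for expanded cells and 952016 to 1916200 for single cells.

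A T cell joins V, D and J segments of its receptor genes once during development, and bases are trimmed and added at the joints, so cells with the same joint usually descend from one precursor. CD8 T cells that meet their antigen divide and acquire killing molecules such as perforin and granzymes. Under lasting stimulation in tumours they gain inhibitory receptors such as PD-1 and TIM-3, while a smaller pool keeps the transcription factor TCF1 and can renew the others.

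The complementarity-determining region 3 (CDR3), which spans the joint, is printed for the largest clonotype of each sample because these clonotypes hold much of the expanded class. Capitals mark the bases that match neither the germline V nor the germline J segment in GRCm38 (mm10).
cko 1 and cko 3, alpha chain, TRAV16 with TRAJ43: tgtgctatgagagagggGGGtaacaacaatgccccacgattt
cko 1 and cko 3, beta chain, TRBV12-1 with TRBJ2-5: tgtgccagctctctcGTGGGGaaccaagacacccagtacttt
cko 2, alpha chain, TRAV5D-4 with TRAJ33: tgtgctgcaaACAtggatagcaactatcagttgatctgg
ctr 1, beta chain, TRBV5 with TRBJ2-7: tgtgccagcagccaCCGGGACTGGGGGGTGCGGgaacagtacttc
ctr 2, alpha chain, TRAV4-4-DV10 with TRAJ50: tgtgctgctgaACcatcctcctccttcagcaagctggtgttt
ctr 2, beta chain, TRBV3 with TRBJ2-5: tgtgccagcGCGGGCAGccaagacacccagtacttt
ctr 3, alpha chain, TRAV16N with TRAJ43: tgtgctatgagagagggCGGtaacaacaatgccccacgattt
ctr 3, beta chain, TRBV12-1 with TRBJ2-5: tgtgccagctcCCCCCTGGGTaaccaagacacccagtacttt
The largest clonotypes of cko 1 and cko 3 had the same bases in both chains. The largest clonotype of ctr 1 carried 2 alpha chains, and that of cko 2 carried 2 beta chains in about equal numbers of cells, 81 and 80 of 150. Of these 150 cells 11 (7.33%) had more than 1 beta chain and 139 had 1, so most cells carried one chain or the other, and whether they form 1 clone or 2 was not tested. The second clonotype of cko 2 had 142 cells. The segment Trav16 lies on chromosome 14 at chr14:53743104-53743705 and Traj43 at chr14:54174742-54174798. Trbv12-1 lies at chr6:41113550-41114067 and Trbj2-5 at chr6:41543453-41543501.

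One V and J pairing recurred in the expanded clonotypes of every sample. It was found after seeing the data and is given as a description, counting a chain only where at least 50% of a clonotype's cells carried it, and counting Trav16, Trav16n and Trav16d-dv11 as one family because these copies are nearly identical. Of 193 pairings of alpha and beta segments among expanded clonotypes, the TRAV16 family with TRAJ43 and TRBV12-1 with TRBJ2-5 alone occurred in 6 samples, while 163 occurred in 1 sample, 25 in 2 and 4 in 3. The libraries cko 1 and cko 3 share most of their expanded clonotypes, as given further on. With these 2 libraries counted as 1 source, the pairing occurred in all 5 sources, 184 others in 1, 6 in 2 and 2 in 3. It made up 16 of the 233 expanded clonotypes and 2627 of 7967 expanded cells (33.0%, exact 95% interval 31.9 to 34.0, counting error only). By sample it held 15.0%, 9.83% and 19.0% of expanded cells in ctr 1, 2 and 3, and 60.9%, 5.52% and 48.9% in cko 1, 2 and 3. The 2 high values are those of cko 1 and cko 3, and they come mainly from their shared largest clonotype. Among clonotypes of 2 to 4 cells the pairing occurred in 3, with 7 cells. Among the 1055 single clonotypes it occurred in 1, in cko 2 (0.0948%, interval 0.0024 to 0.527), and a count of 0 in each of the other samples allows shares of up to 1.44% to 2.73%.

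The joints of this pairing were alike in length and differed at few bases. All 20 clonotypes with it had an alpha CDR3 of 42 bases and a beta CDR3 of 42 bases, made of 8 distinct alpha and 7 distinct beta sequences in 11 distinct pairs. They differed from the largest clonotype of cko 1 at up to 3 alpha and up to 4 beta bases. In the lines that follow, which show a leading clonotype with the pairing in each other sample, capitals mark the bases that differ from that clonotype.
ctr 1, alpha chain, 112 cells: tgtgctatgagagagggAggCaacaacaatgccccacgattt
ctr 1, beta chain, 112 cells: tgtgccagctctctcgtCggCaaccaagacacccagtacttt
ctr 2, alpha chain, 64 cells: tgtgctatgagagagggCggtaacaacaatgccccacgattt
ctr 2, beta chain, 64 cells: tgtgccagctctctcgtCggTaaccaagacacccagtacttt
ctr 3, beta chain, 158 cells: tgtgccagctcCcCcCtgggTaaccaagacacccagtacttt
cko 2, alpha chain, 55 cells: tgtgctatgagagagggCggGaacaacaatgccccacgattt
cko 2, beta chain, 55 cells: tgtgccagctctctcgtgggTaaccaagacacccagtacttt

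Cells with the recurring pairing had more Prf1, Pdcd1 and Cxcr6 RNA than the other expanded cells of their own sample, again as a description without a test. Levels are given in CPM, the UMI count of a gene in the summed cells scaled to a common total. Prf1, which encodes perforin, had a median of 598 CPM over the 6 samples against 328 in other expanded cells and was higher in 6 of 6. Pdcd1, which encodes PD-1, had 992 against 811 CPM and Cxcr6 794 against 671 CPM, each higher in 6 of 6. Ly6c2, a surface protein of circulating effector and memory cells, had 437 against 1353 CPM, and Klf2, a transcription factor of recirculating cells, 103 against 154 CPM. Both were lower in 6 of 6. Other effector genes had no common direction: Gzmb and Ccl5 were higher in 3 of 6 and Ifng in 4 of 6, while Gzma and Gzmk were lower in 5 of 6. Since the pairing's cells are mostly 1 clonotype in cko 1 and cko 3, these levels rest on few clones.

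No CDR3 measure passed adjustment between expanded and single clonotypes, and the differences seen were in the alpha chain. Each chain was counted once per clonotype, so a clonotype could add several alpha chains or none. Chains found in few of a clonotype's cells were left out, and expanded clonotypes with the same bases in both chains entered apart. The mean length of the alpha CDR3 was 42.4 ± 0.720 bases in expanded and 41.1 ± 0.221 in single clonotypes (SD over n = 6 samples), higher in 5 of 6. Its exact two-sided paired permutation p was 0.0625 and its Benjamini-Hochberg value 0.125. Alpha bases that matched neither the germline V nor the germline J segment numbered 3.40 ± 0.268 and 2.75 ± 0.167, higher in 6 of 6. Alpha joints with no such base made up 9.62% ± 3.21 and 16.5% ± 2.87 of the chains, lower in 6 of 6. Both of these had an exact p of 0.031, the smallest that 6 pairs allow, and a Benjamini-Hochberg value of 0.0938 over the 6 measures computed, which were chosen after seeing the data. These 6 samples are not all independent, since cko 1 and cko 3 share most of their expanded receptors. With the 2 libraries averaged as 1 source, also chosen after seeing the data, the differences were 0.732 bases and -7.17 points in the same direction in 5 of 5, with an exact p of 0.0625, the smallest that 5 pairs allow. Beta chains had 10.8 and 10.6 such bases, with an exact p of 0.75. D segments were not matched, so the beta values include germline D bases and are not the same measure as the alpha values.

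Most gated CD8 T cells belonged to expanded clonotypes in every sample. These held 82.2%, 77.5% and 76.4% of gated cells in ctr 1, 2 and 3, and 88.2%, 79.1% and 84.6% in cko 1, 2 and 3. Single cells held 11.2%, 13.1% and 15.8% in the controls and 7.11%, 14.04% and 8.72% in the knockouts. The share of the largest clonotype ranged more widely: 15.6%, 34.2% and 11.9% in ctr 1, 2 and 3, and 50.9%, 10.2% and 39.2% in cko 1, 2 and 3. With 1137 and 862 cells, the largest clonotypes of cko 1 and cko 3 were far above the 287 cells of the next, that of ctr 2.

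**Figure D1:**
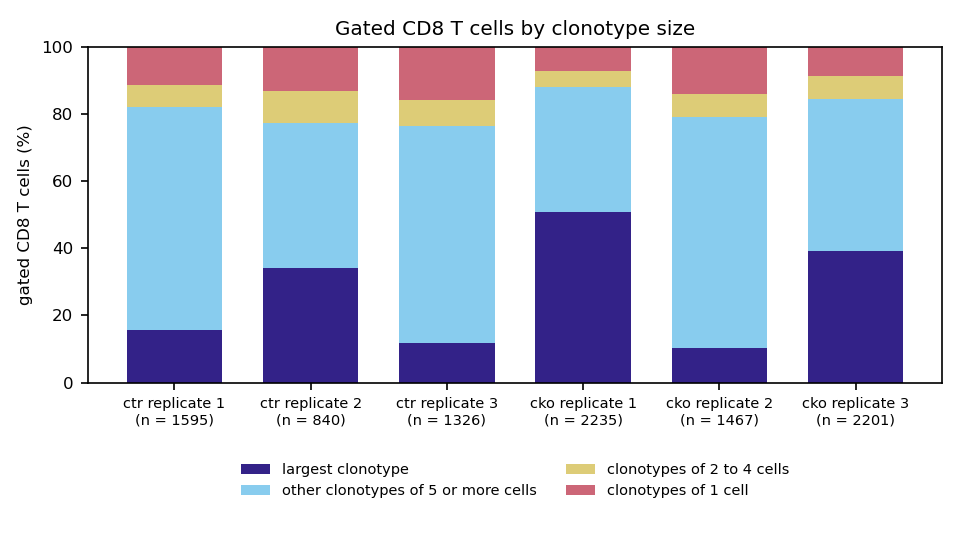
Share of gated CD8 T cells (percent, vertical axis) in the largest clonotype, the other expanded clonotypes, clonotypes of 2 to 4 cells and single clonotypes, stacked for each of the 6 samples, with the number of gated cells. The largest clonotype takes 50.9% in cko 1 and 39.2% in cko 3, against 10.2% in cko 2 and 11.9% to 34.2% in the controls.

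None of the 4 clone size measures differed between genotypes beyond the spread between samples. The expanded share was 83.9% ± 4.59 in cko and 78.7% ± 3.08 in ctr (SD, n = 3 each), with an exact permutation p of 0.2 and a Benjamini-Hochberg value of 0.4. The groups overlapped, and 3 against 3 samples cannot give a p below 0.1. The largest clonotype held 33.4% ± 20.9 and 20.6% ± 11.9, with an exact permutation p of 0.5. Clonotypes per 100 gated cells were 14.5 ± 4.68 and 19.2 ± 2.22, with an exact permutation p of 0.3. These SDs and p-values count cko 1 and cko 3 as separate samples, though they share most of their expanded clonotypes. Added together, these libraries had 88.5% of gated cells in expanded clonotypes and 45.1% in the largest, against 79.1% and 10.2% in cko 2.

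The libraries cko 1 and cko 3 shared most of their T cells' clonotypes, which no other pair did. A match needed the same CDR3 bases in both an alpha and a beta chain, so clonotypes with no alpha chain could not match. By this rule 86 clonotypes of cko 1 with 91.0% of its gated cells were found in cko 3. In turn 84 clonotypes of cko 3 with 74.0% of its cells were found in cko 1. Of the expanded clonotypes, 35 of 37 in cko 1 and 28 of 43 in cko 3 were shared, and of the single ones 30 of 159 and 28 of 192. The other 14 pairs of libraries shared 0 to 2 clonotypes. The labels list these 2 libraries as separate replicates, so whether they come from 1 animal cannot be told from the labels. Results below are therefore also given with both libraries added together as 1 sample where that changes them. Counting clonotypes over both libraries moved 2 single cells of cko 1 and 2 of cko 3 into expanded clonotypes, and 28 and 26 into clonotypes of 2 to 4 cells.

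Class membership also depends on how chains were captured. A single cell with no alpha chain, or with an alpha chain not assigned to its clone, can be counted apart: 73 of the 1055 single cells had the beta chain of an expanded clonotype of their own sample, and 34 of the 233 expanded clonotypes (1011 cells) had the same bases in both chains as another expanded clonotype of the sample. Cells with no alpha chain made up 4.81% ± 3.98 of expanded and 13.9% ± 4.74 of single cells (SD, n = 6), lower in expanded cells in 6 of 6. Expanded cells were also more deeply read, with sample medians of 7051 to 9493 UMIs against 6265 to 7476, a mean difference of 1301 UMIs and higher in 6 of 6. Both differences had an exact paired permutation p of 0.031 and a Benjamini-Hochberg value of 0.0417. Without the 73 cells, an alternative chosen after seeing the data, 2335 genes differed between the classes, against 2275 with them.

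Expanded and single CD8 T cells differed across a large part of the transcriptome. Expanded cells had less RNA of 13 of 22 genes of naive, stem-like and memory T cells. They had more of several inhibitory receptors, perforin, Ifng and enzymes of glycolysis. Granzyme genes went both ways, and the calls for Gzma, Gzmb and Gzmd were lost with cko 1 and cko 3 added together. In edgeR's quasi-likelihood test with the sample as block and Benjamini-Hochberg adjustment, 2275 of 10270 genes tested differed at an adjusted p under 0.05 (22.2%). Of these, 1163 were higher in expanded cells (11.3% of those tested) and 1112 lower (10.8%), and the median over all genes tested was -0.01 on the log2 scale. Of the 24 genes chosen for their known role in CD8 T cells, 11 were higher, 8 lower and 5 did not pass. Among these calls, those for Gzma, Gzmb and Klrg1, a receptor of effector cells that was lower, held in only 10, 9 and 8 of 21 alternatives. In sums of cells, a lower level per cell and fewer cells that express a gene cannot be told apart. With cko 1 and cko 3 added together, 2087 genes differed.

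Tcf7, which encodes TCF1 (chr11:52252371-52283014, minus strand), was among the stem-like genes that fell most. In single cells it stood at 115, 128 and 160.5 CPM in ctr 1, 2 and 3 and at 175, 166 and 161 CPM in cko 1, 2 and 3. In expanded cells it stood at 4.41, 10.9 and 6.29 CPM in the controls and 9.65, 12.3 and 9.66 CPM in the knockouts. Every expanded value lay below every single value, and the log2 difference was -4.11 ± 0.15 (SE; edgeR adjusted p 2.3e-08). Since expanded cells were read more deeply, each cell was also thinned to 2000 UMIs, a check added after seeing the data that left out 6 to 22 expanded and 1 to 10 single cells per sample. A Tcf7 UMI was then found in 1.79% ± 0.626 of expanded and 23.8% ± 3.96 of single cells (SD, n = 6), lower in 6 of 6 with an exact paired permutation p of 0.031. In these 6 pairs cko 1 and cko 3 count apart, though they share most of their expanded clonotypes, and 5 pairs allow no p below 0.0625. Before thinning the shares were 2.61% to 6.85% and 42.7% to 53.2%. In macrophages of the same samples, which should lack the gene and had median depths of 7266 to 9866 UMIs, the thinned share was 0.0733% to 0.417%.

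Slamf6 and Nsg2 were also lower in expanded cells. Slamf6, a surface marker of the stem-like pool, had 42.9, 71.4 and 57.8 CPM in single cells of ctr 1, 2 and 3 and 6.89, 11.1 and 8.20 CPM in expanded cells. In cko 1, 2 and 3 it had 89.1, 98.6 and 61.9 CPM in single and 10.6, 17.5 and 10.7 CPM in expanded cells. The classes did not overlap, with a log2 difference of -2.68 ± 0.10 (adjusted p 4e-12). Nsg2 had the lowest log2 difference of the genes named, -4.98 ± 0.20, with 27.3 to 54.1 CPM in single and 0.672 to 1.71 CPM in expanded cells.

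Of the 22 stem-like, naive and memory genes tested, 13 fell and 0 rose, with a median log2 difference of -0.81 against -0.01 over all genes. The fall included S1pr1, the receptor for exit into lymph and blood (-3.47 ± 0.38), Klf2, which drives S1pr1 (-1.85 ± 0.15), Id3 (-3.26 ± 0.35), Lef1, a relative of Tcf7 (-2.45 ± 0.40), and Il7r, the receptor for the survival cytokine IL-7 (-0.83 ± 0.12). Il7r was the smallest of these, at 159 to 275 CPM in single and 67.0 to 159 CPM in expanded cells, with the lowest single value about equal to the highest expanded one. The other 9 members did not pass, and some had high levels in both classes. Ccr7 had a mean of 127 CPM in expanded and 187 CPM in single cells (-0.59), Bcl2 170.4 and 187 CPM (-0.15), and Ltb, a lymphotoxin subunit, 759.7 and 717 CPM (0.09). Cd27, a costimulatory receptor, had 162 and 158 CPM (0.07). When cko 1 and cko 3 were added together, 24 genes of the list were tested, of which 15 fell and 0 rose.

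Inhibitory receptors were higher in expanded cells. Lag3 (chr6:124904361-124911705, minus strand) had 146, 195 and 118 CPM in single cells of ctr 1, 2 and 3 and 151, 179.5 and 207 CPM in those of cko 1, 2 and 3. In expanded cells Lag3 had 439, 533 and 569 CPM in the controls and 552, 579 and 579 CPM in the knockouts. All expanded values exceeded all single ones, and the log2 difference was 1.73 ± 0.09 (adjusted p 6.1e-08). After thinning, a Lag3 UMI was found in 58.5% ± 3.34 of expanded and 19.5% ± 2.11 of single cells, against 0.328% to 2.11% of macrophages. Pdcd1 had 226 to 473 CPM in single and 635 to 1042 CPM in expanded cells and rose by 1.24 ± 0.11 on the log2 scale (adjusted p 9.7e-05). Havcr2, which encodes TIM-3, had 29.9 to 65.0 CPM in single and 92.2 to 181 CPM in expanded cells and rose by 1.48 ± 0.09.

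Of 20 exhaustion and checkpoint genes tested, 15 rose and 2 fell, with a median of 1.01. These counts were 14 and 2 with cko 1 and cko 3 added together. Entpd1, which encodes the ectonucleotidase CD39, rose by 1.37 ± 0.09, Tigit by 1.06 ± 0.11 and Tnfrsf9, the costimulatory receptor 4-1BB, by 1.35 ± 0.11. The fallers were Eomes, a T-box transcription factor (-1.21 ± 0.12), and Cd160, an inhibitory receptor (-0.37 ± 0.07). Tox, a transcription factor of exhausted cells, did not pass (0.66 ± 0.27, adjusted p 0.17), and its values separated by genotype, as given with the genotype comparison.

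Killing molecules split by gene. Prf1 (chr10:61297833-61304680, plus strand) had 81.6, 84.0 and 118 CPM in single cells of ctr 1, 2 and 3 and 93.5, 106 and 123 CPM in those of cko 1, 2 and 3. In expanded cells Prf1 had 404, 390.2 and 395 CPM in the controls and 449, 506 and 478 CPM in the knockouts. Expanded values lay close together and well above all single values, with a log2 difference of 2.13 ± 0.08 (adjusted p 4e-12). After thinning, a Prf1 UMI was found in 39.2% ± 3.24 of expanded and 14.5% ± 2.37 of single cells, against 0.278% to 0.812% of macrophages.

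Among the granzymes, Gzme and Gzmd, neighbouring genes on chromosome 14, had the 2 highest log2 differences of the group, 3.31 ± 0.59 and 3.10 ± 0.76. Their single levels varied widely, from 3.56 to 62.6 CPM for Gzme and from 2.97 to 87.7 CPM for Gzmd, and these related genes can share reads. Gzmb rose by 0.67 ± 0.17 (adjusted p 0.044), and its classes overlapped, with 475 to 1601 CPM in single and 799 to 2288 CPM in expanded cells. Gzma was lower in expanded cells in 6 of 6 samples (-1.66 ± 0.41, adjusted p 0.043), and Gzmk did not pass (-0.57 ± 0.23). The calls for Gzma, Gzmb and Gzmd were lost when cko 1 and cko 3 were added together (adjusted p 0.0544, 0.0766 and 0.0982), and each was lost on leaving out several single samples. That for Gzme was lost without cko 2 (adjusted p 0.0537). Of 18 cytotoxicity genes tested, 9 rose and 3 fell, with a median of 0.51. Adding cko 1 and cko 3 together gave 6 risers and 2 fallers. Serpinb9, an inhibitor of granzyme B, rose by 1.07, and Gzmm fell by 2.95 on the log2 scale.

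**Figure D2:**
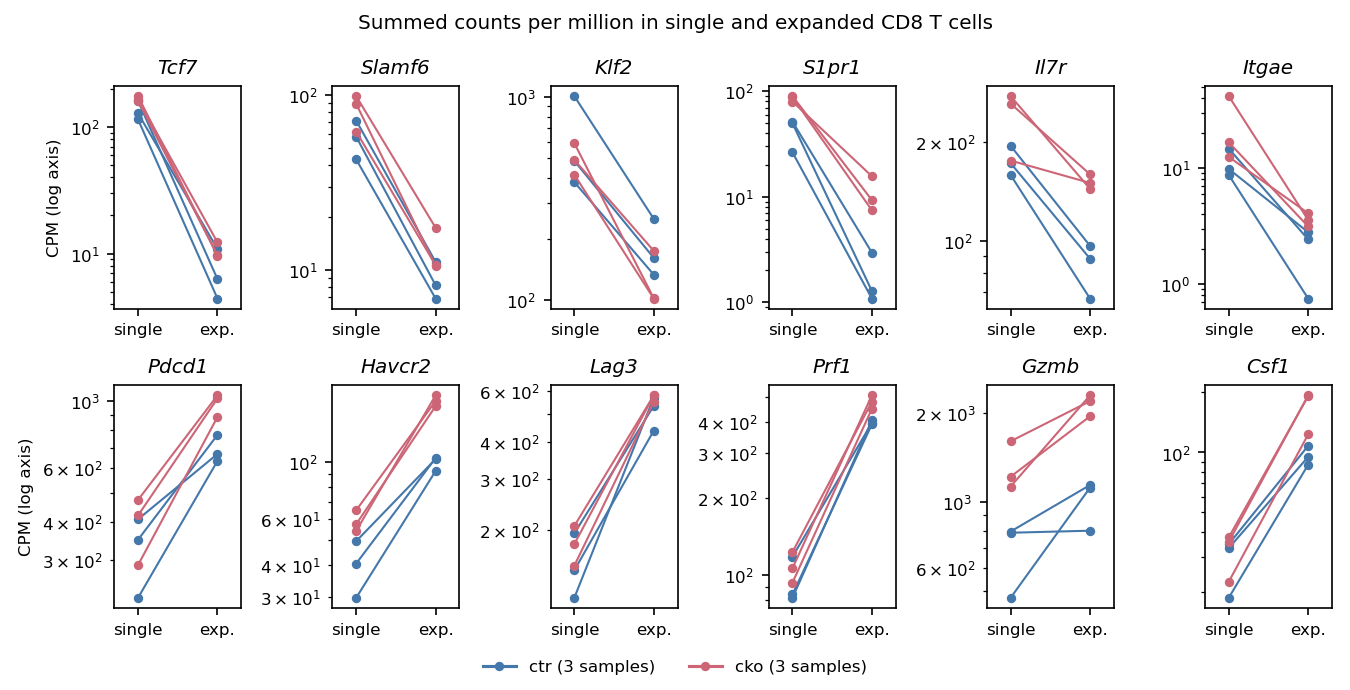
Level (CPM, log axis) of 12 genes in the summed single and expanded CD8 T cells of each sample, joined by a line, with controls in blue and knockouts in red. Tcf7, Slamf6, Klf2 and S1pr1 slope down in all 6 samples, while Pdcd1, Havcr2, Lag3, Prf1 and Csf1 slope up in all 6.

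Cytokine and effector regulator genes were higher where they differed. Csf1, the growth factor of macrophages, had 18.7 to 37.5 CPM in single and 86.8 to 193 CPM in expanded cells, without overlap, and rose by 2.14 ± 0.13 (adjusted p 1.2e-07). Ifng, which encodes interferon gamma, had 163 to 341 CPM in single and 455 to 721 CPM in expanded cells and rose by 1.40 ± 0.15. Of 24 genes on this list 13 rose and 0 fell, with a median of 0.64, among them the chemokine gene Ccl4 (1.14) and the transcription factor genes Irf8 (1.47 ± 0.12) and Prdm1 (1.24 ± 0.12), the latter encoding BLIMP1. The chemokine gene Ccl5 did not pass (-0.14 ± 0.13). The interferon response lists held no riser: 17 of 27 type I interferon genes fell and 0 rose (median -0.57), and 13 of 27 interferon gamma response genes fell and 0 rose (median -0.25). Examples are Ifit3, an antiviral gene (-0.95 ± 0.09), and Tgtp1, an interferon-inducible GTPase (-1.81 ± 0.14). The type I list had 17 fallers and the interferon gamma list 12 with cko 1 and cko 3 added together.

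Of the 16 lists with at least 10 tested genes, that of glycolysis and hypoxia had the highest share of risers: 21 of 24 genes rose and 1, Pdk1, fell, with a median of 0.54. Gapdh averaged 6811 CPM in expanded and 4466 CPM in single cells (0.62 ± 0.05), and the glucose transporter Slc2a3 64.2 and 37.2 CPM (0.81 ± 0.09). By comparison 7 of 23 oxidative phosphorylation genes rose and 1 fell, with a median of 0.06. Proliferation genes hardly differed: of 28 tested, Cenpa and Dut rose and Mcm2 fell, and Mki67, the common marker of cycling cells, had 0.16 ± 0.18. Of 15 survival and death genes of the BCL2 family list 3 rose and 2 fell, and of 23 genes of tissue dissociation and heat shock 4 rose and 4 fell. Of 29 genes of TCR signalling 17 rose, such as Nr4a2 (1.06 ± 0.11), and 5 fell, among them Cd69 (-0.56) and Myc (-0.68). Adding cko 1 and cko 3 together gave 14 risers and 5 fallers in TCR signalling and 20 and 1 in glycolysis and hypoxia. Oxidative phosphorylation then had 6 and 1, proliferation 4 and 1 and the BCL2 family list 3 and 3.

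Homing, residency and natural killer receptor genes went both ways. Itgae, which encodes the epithelial-binding integrin CD103, had 8.71 to 41.7 CPM in single and 0.746 to 4.07 CPM in expanded cells (-2.57 ± 0.26). Cxcr6, a chemokine receptor of tissue T cells, had 167 to 405 CPM in single and 455 to 914 CPM in expanded cells (1.17 ± 0.07). Cx3cr1, a receptor of effector cells, rose by 1.55 ± 0.11. Of 16 residency genes 6 rose and 4 fell, and of 23 genes of terminal effector and circulating cells 12 rose and 6 fell. Of 13 killer lectin receptor genes 5 rose and 4 fell: Klrd1 (0.99 ± 0.07) and Klri2 (2.30 ± 0.22) rose, and Klra7 (-3.50 ± 0.53) and Klra1 (-2.76 ± 0.41) fell. Klra genes are close copies of each other, and reads may be split among them. When cko 1 and cko 3 were added together, 5 residency genes rose and 4 fell. Of the terminal effector and circulating genes 11 then rose and 4 fell, and of 15 killer lectin receptor genes tested 6 rose and 5 fell.

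Other large differences were Igfbp7, a secreted protein that binds insulin-like growth factors (3.17 ± 0.17), with 3.68 to 13.1 CPM in single and 51.4 to 104 CPM in expanded cells, and Serpine2, a protease inhibitor (2.87 ± 0.47). Slc37a2, Osgin1, Sdcbp2 and Slc17a6 rose by 1.87 to 2.19 on the log2 scale. Dapl1 (-4.13 ± 0.61), Klf3 (-3.32 ± 0.21), Cd7, a T cell surface protein (-3.20 ± 0.24), and Sidt1 (-2.27 ± 0.12) fell.

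**Figure D3:**
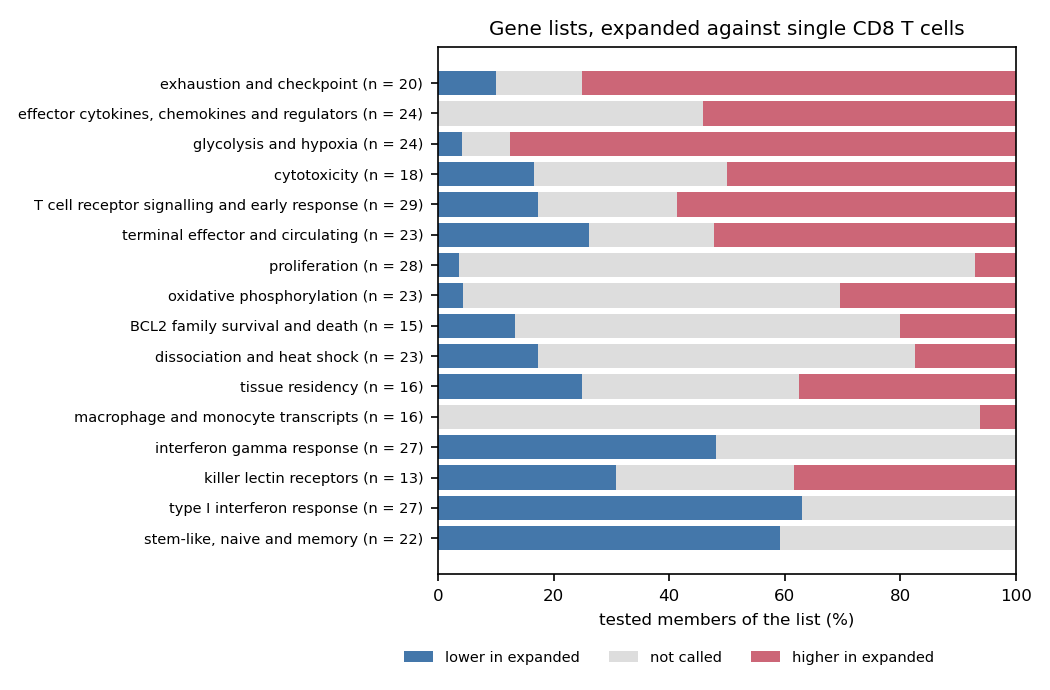
Share of tested members (percent, horizontal axis) that were lower, not called or higher in expanded against single CD8 T cells, for the 16 gene lists with at least 10 tested members, ordered by median log2 difference. Exhaustion (15 of 20) and glycolysis (21 of 24) are mostly higher, stem-like genes (13 of 22) and type I interferon genes (17 of 27) mostly lower.

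Markers of other cell types were set beside these results. The 8 CD8 T cell markers summed to 7949 to 9142 CPM in expanded and 5954 to 7300 CPM in single cells, and the CD8 genes among them were part of the choice of cells. The 9 macrophage markers summed to 373 to 1376 CPM in expanded and 199 to 1576 CPM in single cells, with none at 0. Of 16 macrophage genes tested 1 rose and 0 fell, and the riser was Spp1, an abundant macrophage transcript (2.44 ± 0.40). The part of free macrophage RNA in the Spp1 result was not tested. The 6 B cell and plasma cell markers summed to 750.4 CPM in single and 174 CPM in expanded cells of cko 2 and to at most 18.4 CPM elsewhere. Ccr8 (1.47 ± 0.13) and Il2ra (0.76 ± 0.12), which Tregs and activated T cells share, rose, and Cd40lg, a gene of helper T cells, fell (-1.75 ± 0.31).

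Values just at the size limit lay close together for some genes only. Summed over samples, the 30 clonotypes of 5 cells had 17.2 CPM of Tcf7 and the 42 clonotypes of 4 cells 25.9 CPM. Prf1 had 302 and 207 CPM, Lag3 515 and 354 CPM, and Pdcd1 669 and 666 CPM. These sums come from 150 and 168 cells and are given without a test.

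Clonotypes of 2 to 4 cells already differed from single cells in the leading genes. Of 7790 genes tested 277 differed (3.56%), 146 higher (1.87%) and 131 lower (1.68%). This comparison uses the same single cells as the one above, so its values are set beside that and not used as further support. Tcf7 had 36.7, 35.4 and 57.3 CPM in ctr 1, 2 and 3 and 51.7, 18.9 and 78.1 CPM in cko 1, 2 and 3, below the single cells in every sample and above the expanded cells in every sample. Its log2 difference from single cells was -1.75 ± 0.24 (adjusted p 0.0094), a call that was lost without cko 1 and without cells of extra chains. Slamf6 differed by -1.01 ± 0.12, Lag3 by 1.07 ± 0.09, Prf1 by 1.03 ± 0.09 and Pdcd1 by 0.65 ± 0.08. Of the lists, 12 of 20 exhaustion genes rose and 1 fell, 12 of 22 stem-like genes fell and 0 rose, and 11 of 23 glycolysis genes rose and 1 fell.

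**Figure D4:**
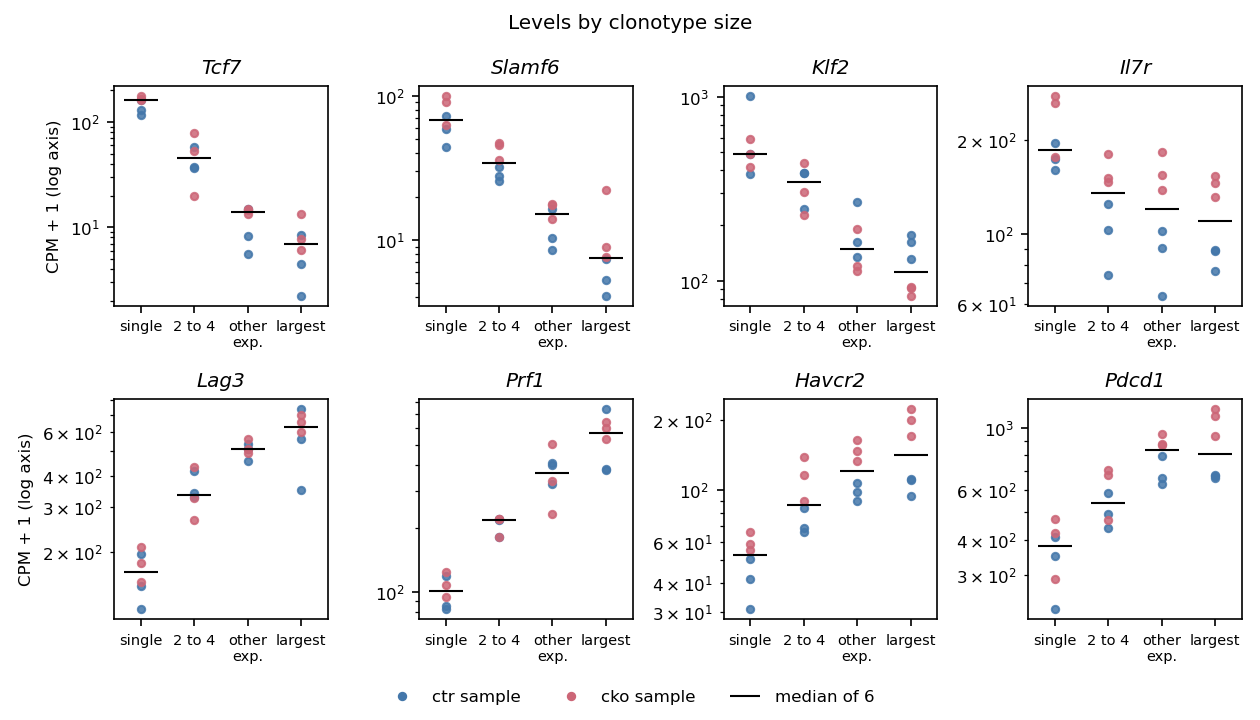
Level (CPM plus 1, log axis) of 8 genes in single cells, clonotypes of 2 to 4 cells, expanded clonotypes other than the largest, and the largest clonotype, with 1 point per sample and the median as a black line. Median Tcf7 goes from 161 CPM in single cells through 44.2 and 12.97 CPM to 5.88 CPM in the largest clonotype, and median Prf1 from 99.98 through 219 and 367 CPM to 566 CPM.

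Few genes differed in a common direction between the largest clonotype of each sample and its other expanded clonotypes. Of 10814 genes tested 7 differed (0.0647%), 2 higher (0.0185%) and 5 lower (0.0462%), while 908 had an unadjusted p under 0.05. Lmna, which encodes the nuclear lamina protein lamin A/C, had 4.32, 8.08 and 2.49 CPM in the largest clonotypes of ctr 1, 2 and 3 against 9.81, 9.29 and 4.88 CPM in the other expanded clonotypes. In cko 1, 2 and 3 Lmna had 25.1, 20.7 and 25.6 CPM against 71.0, 34.3 and 57.4 CPM. It was lower in the largest clonotype in 6 of 6 (-1.11 ± 0.14, adjusted p 0.018). Gpr183, an oxysterol receptor that guides lymphocyte position, was lower by 0.46 on the log2 scale (-0.46 ± 0.07), and Dhrs7, a dehydrogenase, higher (0.50 ± 0.08). With cko 1 and cko 3 added together, no gene passed, and leaving out 1 sample gave 0 (without cko 1) to 24 genes (without ctr 2). No member of the exhaustion, stem-like or cytotoxicity lists was called.

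Within single samples the largest clonotype could still lie far from the rest. Prf1 had 734 CPM in the largest clonotype and 325 CPM in the other expanded clonotypes of ctr 3, and 598 and 232 CPM in cko 1, but 378.5 and 410 CPM in ctr 1 (0.58 ± 0.27 over the 6 samples, adjusted p 0.65, higher in 4 of 6). Ly6c2 was lower in the largest clonotype in 6 of 6, with 188 against 1161 CPM in ctr 3 and 585 against 1565 CPM in cko 2 (-0.91 ± 0.36, adjusted p 0.595). Gzmb went both ways, with 2869 against 1446 CPM in cko 1 and 1234 against 2068 CPM in cko 2. Each sample contributes 1 largest clonotype, and that of cko 1 and cko 3 is the same. In ctr 3 a clonotype of 29 cells among the other expanded ones had the same bases in both chains as the largest. Cells with no alpha chain made up 0% of the largest clonotype and 17.7% of the other expanded cells in cko 3. In cko 1 these shares were 11.4% and 7.31%. Whether such cells of cko 3 belong to its largest clone was not tested. Whether the largest clonotype of cko 2 is 1 clone or 2 was not tested.

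Clonotypes of at least 20 cells, 84 in all, were also taken one by one, as a description chosen after seeing the data. They are not 84 separate clones, since 12 clonotypes were counted in both cko 1 and cko 3. Some also had the same bases in both chains as another clonotype of their sample. None of the 84 had as much Tcf7 or Slamf6 as the single cells of its sample, and Tcf7 ranged from 0 to 65.7 CPM, with 17 clonotypes at 0. Havcr2 and Pdcd1 were above the sample's single cells in 81 of 84, Cxcr6 in 82, Lag3 in 79 and Prf1 in 78. Other genes had no common direction, with Gzmb above in 57, Tox in 50, Mki67 in 45, Gzmk in 25 and Ly6c2 in 22. Lag3 ranged from 26.3 to 926 CPM between clonotypes and Prf1 from 71.8 to 1138 CPM.

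A few clonotypes of cko 2 stood apart from the rest. One of 21 cells had 0 CPM of Pdcd1, the lowest Lag3 (26.3 CPM), the highest Ly6c2 (6286 CPM) and the highest Tcf7 (65.7 CPM). Another of 21 cells had the highest Ccl5, 26831 CPM, with 3393 CPM of Gzma and 771 CPM of Klf2. A clonotype of 29 cells had the lowest Ccl5, 67.8 CPM, with 94.1 CPM of Slamf6 and the lowest Prf1, 71.8 CPM. Its cells also had 34095 UMIs each on average, against 4758 to 16959 in the other clonotypes of at least 20 cells, and 306 CPM of Mki67, a marker of dividing cells. The part of this depth in its levels was not tested. These clonotypes are small, and their sums rest on few cells.

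Levels of some genes varied widely between clones and were alike in both libraries that share them. For 12 clonotypes with at least 20 cells in both cko 1 and cko 3, levels were set side by side. Points share their library and their depth, so Pearson's r of log2 levels over the 12 clonotypes is a description. It was 0.97 for Ly6c2 (802 to 6068 CPM in cko 1 and 602 to 5748 CPM in cko 3), 0.95 for Tnfrsf9, 0.94 for Lag3 and 0.92 for Ccl5. It was 0.41 for Tcf7, which had 0 to 25.4 CPM in cko 1 and 0 to 48.0 CPM in cko 3, and 0.13 for Klrg1, a receptor of effector cells. Tcf7 and Klrg1 had few UMIs in these clonotypes, and the part of counting error in their r was not tested. Among genes of higher level, r was 0.36 for Ifng (306 to 705 CPM in cko 1) and 0.45 for Cxcr6 (685 to 1243 CPM in cko 1).

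**Figure D5:**
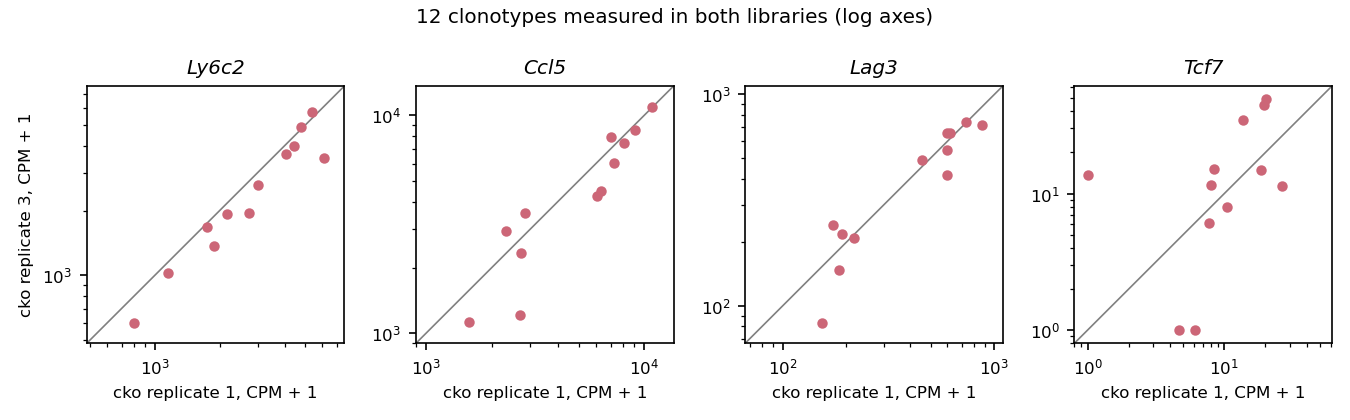
Level in cko 1 (horizontal) against level in cko 3 (vertical), CPM plus 1 on log axes, of Ly6c2, Ccl5, Lag3 and Tcf7 in the 12 clonotypes with at least 20 cells in both libraries, with the line of equal levels. Points for Ly6c2, Ccl5 and Lag3 follow the line over a wide range, and those for Tcf7 scatter between 0 and 48.0 CPM.

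Between genotypes, more genes passed in expanded than in single cells; the single sums are smaller, and the difference between these counts was not tested. In expanded cells 456 of 11633 genes differed between cko and ctr (3.92%), 226 higher in cko (1.94%) and 230 lower (1.98%). In single cells 1 of 8708 did (0.0115%), with 704 at an unadjusted p under 0.05 and 29 called by DESeq2. The expanded count depended on the 2 libraries that share clones: it was 86 with cko 1 and cko 3 added together, 78 without cko 1, 61 without cko 3 and 972 without cko 2. It was 80 when each expanded clonotype was cut to 5 cells. The gene called in single cells was Gzma, with 137, 130.2 and 126 CPM in ctr 1, 2 and 3 and 843, 983 and 544 CPM in cko 1, 2 and 3 (2.52 ± 0.22, adjusted p 0.0017), and the call was lost with only cells that had both chains.

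Expanded cells of the knockouts had more Emb, a membrane glycoprotein, and Itgb7, an integrin of gut homing. Emb stood at 51.0, 53.1 and 33.4 CPM in expanded cells of ctr 1, 2 and 3 and at 189.5, 162 and 183 CPM in those of cko 1, 2 and 3, without overlap (1.94 ± 0.17, adjusted p 0.0036). Itgb7 stood at 34.4, 47.0 and 35.4 CPM in the controls and 197, 117 and 175 CPM in the knockouts (2.05 ± 0.21). Lmna was higher by 2.40 ± 0.24, Havcr2 by 0.77 ± 0.09 and Gzmb by 1.05 ± 0.14, Gzmb at 799 to 1139.8 CPM in the controls and 1944 to 2288 CPM in the knockouts. The Itgb7 call was lost with at most 5 cells per expanded clonotype. The Gzmb call was lost with cko 1 and cko 3 added together, as were those of Pdcd1 (0.48), Cxcr6 (0.57), Il7r (0.82), Ly6c2 (1.08), Rora (1.71) and Tigit (-0.57).

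Lower in expanded cells of the knockouts were Zfp683, which encodes the residency factor HOBIT (-2.37 ± 0.17), with 31.1, 48.5 and 38.1 CPM in ctr 1, 2 and 3 and 6.50, 8.12 and 8.41 CPM in cko 1, 2 and 3. Chn2 (-2.01 ± 0.16) and Tox (-1.23 ± 0.15) were lower too. Apoe was lower by 2.56 on the log2 scale, C1qa by 2.42, C1qc by 2.13 and C1qb by 2.06, genes that macrophages express strongly. Of 16 macrophage genes tested 9 were lower and 0 higher. The 9 macrophage markers summed to 1033, 1376 and 859 CPM in expanded cells of ctr 1, 2 and 3 and to 373, 437 and 394 CPM in those of cko 1, 2 and 3, and their part in the Apoe and C1q results was not tested. The calls for C1qa, C1qb, C1qc and Apoe were lost without the cells of highest Scrublet doublet scores and with at most 5 cells per clonotype. Those for C1qb and C1qc were also lost with cko 1 and cko 3 added together. Those for C1qa, C1qb and C1qc were lost without cko 1, without cko 3 and without the largest clonotype.

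The difference of expanded from single cells was itself compared between genotypes. It differed for 19 of 10270 genes (0.185%), 16 with a higher (0.156%) and 3 with a lower value (0.0292%) in cko, and 629 had an unadjusted p under 0.05. Lef1 had 59.5, 50.4 and 77.7 CPM in single cells of ctr 1, 2 and 3 and 64.1, 109.6 and 73.2 CPM in those of cko 1, 2 and 3. In expanded cells Lef1 had 4.88, 4.70 and 6.50 CPM in the controls and 22.9, 24.3 and 22.5 CPM in the knockouts. The genotypes overlapped in single cells and were apart in expanded cells, and the difference of differences was 1.79 ± 0.21 (adjusted p 0.001).

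Emb (1.53 ± 0.16) and Itgb7 (1.89 ± 0.21) had the same form: Itgb7 was at 167 to 234 CPM in single cells of all samples and was lower in expanded cells mainly in the controls, though its call was lost without ctr 1, ctr 3 or cko 3. Tox went the other way (-1.14 ± 0.19, adjusted p 0.03). In single cells Tox had 66.2 to 75.9 CPM in the controls and 54.3 to 87.3 CPM in the knockouts, and in expanded cells 143 to 209 CPM in the controls and 65.3 to 84.9 CPM in the knockouts. With cko 1 and cko 3 added together 8 genes passed, and Lef1, Emb, Itgb7 and Tox were among them. Without the largest clonotype, an alternative added after seeing the data, 7 passed, and Tox was not among them. Leaving out 1 sample gave 2 to 14 genes.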

How the data were processed

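RNA and TCR chains of sorted tumour CD45+ cells were measured in 3 ctr and 3 cko samples. The authors deposited raw UMI counts per gene and barcode and UMI and read counts per TCR contig, made with Cell Ranger 7.0.0 on mm10 (GRCm38), per the file headers and the submitters' processing notes. The sources used here do not say whether doublets or free RNA were removed, and free RNA was not subtracted here. Scrublet (scanpy 1.11.5) marked 442 of 41679 barcodes by its automatic threshold; as an alternative the 2328 barcodes with the highest scores were left out.

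Gated cells were summed per sample and clonotype class. Sums were compared with edgeR 4.0.16 (TMM, filterByExpr, robust quasi-likelihood fit, sample as block except between genotypes) in R 4.3.3, with Benjamini-Hochberg adjustment over all genes tested; log2 errors are standard errors from the F statistic. DESeq2 1.42.0 was an alternative. TCR segment genes, Cd8a, Cd8b1 and Cd4 stayed in library sizes but were not tested. Single values used exact permutation tests (scipy 1.17.1). CPM is the UMI count scaled to a common total per sum, and 1 CPM was added where levels were put on a log scale outside the models. Intervals are exact Clopper-Pearson and, like limits from a count of 0 (3 counts), cover counting error only.

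Germline segments and coordinates came from the GENCODE M21 annotation of GRCm38, which held 32158 of 32285 gene IDs. The members and gene lists were chosen with earlier results of these data known. Named genes were 24 genes of known role, plus, for expanded against single cells, the 12 with the largest differences each way, and 6 each way in the other comparisons. These had to pass, average at least 20 CPM and have the same sign in every sample or, between genotypes, no overlap; predicted, ribosomal and mitochondrial genes were not named, and 1 gene that the rule would name is not reported here. On simulated counts of 10081 genes the test of expanded against single cells recovered 91.9% of 99 genes changed by a log2 of 1 and 100% of 94 changed by a log2 of 2. For the genotypes in expanded cells the shares were 68.4% and 97%.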

Additional observations from a re-analysis of the deposited data

Results flagged for a closer look

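In 2 of 44 groups of 6 samples that were examined, 1 sample was far from the others, and chance alone gives about 1 such group in 20. The log2 difference of expanded minus single cells, taken per sample with 1 CPM added to each level, was 1.99 for Igfbp7 in ctr 3, below the other samples at 2.99 to 3.53. For Klri2 it was 4.995 in ctr 2, above the others, with the single cells of ctr 2 at 0 CPM.

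The difference of expanded from single cells differed between genotypes in 9 named genes by edgeR's interaction test with Benjamini-Hochberg adjustment. It was higher in cko by 1.89 on the log2 scale for Itgb7, 1.79 for Lef1, 1.53 for Emb, 1.48 for Prrt1, 1.29 for Ifit1, an antiviral gene (1.295 before rounding), and 1.10 for Cxcr3, a chemokine receptor of effector T cells (1.105). It was -1.18 for Sntb1, -1.14 for Tox and -0.75 for Mt1, a metallothionein. Lef1 and Emb were the 2 of these genes that passed under every alternative except the replicate block.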

How the results depend on the processing

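The count of genes that differed between expanded and single cells (2275) was 1768 to 2147 on leaving out 1 sample each and 1274 with no replicate block (the sample not in the model), and 1237 with at most 5 cells per expanded clonotype; the other alternatives gave 1827 to 2430. For clonotypes of 2 to 4 cells (277) it was 136 by DESeq2, 484 with no filter on low counts, 38 with no replicate block and 145 to 247 on leaving out samples. For the largest clonotype (7) it was 17 by DESeq2, 39 with no filter, 0 with cko 1 and cko 3 added together, 0 with no replicate block and 0 to 24 on leaving out samples. For the difference between genotypes (19) it was 94 with no filter, 35 without the highest Scrublet scores, 8 with cko 1 and cko 3 added, 7 without the largest clonotype and 2 to 14 on leaving out samples. In expanded cells (456) it was 722 by DESeq2, 86 with cko 1 and cko 3 added, 80 with at most 5 cells per clonotype and 61 to 972 on leaving out samples. In single cells (1) it was 29 by DESeq2, 183 with no filter, 0 with only cells of both chains, 6 without cells of extra chains, 13 without the highest Scrublet scores, 2 with cko 1 and cko 3 added, 3 without cells sharing a TRB with an expanded clonotype and 1 to 125 on leaving out samples. The causes were not tested.

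Replicate numbers are only names here: same-numbered samples of the genotypes had correlations of -0.06 to 0.13 in expanded cells and -0.05 to -0.01 in single cells. With the number as a replicate block, 0 genes passed for the difference between genotypes, 418 in expanded cells and 5 in single cells. Mki67 went from 0.16 to -0.016 with at most 5 cells per clonotype. The share of cells with more than 1 TRB, -0.75 points in expanded minus single cells, was -3.84 to 0.646 on leaving out samples, the highest without ctr 3. Depth and chain capture kept their direction on leaving out samples (UMIs 1046 to 1419, genes 229 to 282, cells with no alpha chain -9.49 to -8.73 points), with the smallest p that 5 pairs allow, 0.0625. Over 21 alternatives the log2 difference of Tcf7 was -4.37 to -3.81, of Lag3 1.60 to 1.78 and of Prf1 1.66 to 2.21, each past the threshold in all 21. Single cells number 110 to 209 per sample, which limits genes of low level in that class.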
